A study of Homo sapiens with 6 samples.

Results

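The 10 genes described here, CD44, PROM1, ALCAM, ALDH1A1, ALDH1A3, BMI1, MYC, LRIG1, OLFM4 and SOX4, are used as markers of colon stem cells or of stem-like cells in colorectal cancer, and they were taken by symbol, with earlier results of these data known, from a table of 46427 genes, in which all 10 were listed. The table holds reads per gene from HCT116, an established human colon carcinoma line. Parental cells with wild type ZKSCAN3 (*ZK3*-WT) and ZKSCAN3 knockout cells (*ZK3*-KO) were each sequenced as 3 biological replicates. *ZK3*-KO cells carry a CRISPR/Cas9 deletion of the start codon in the first exon of ZKSCAN3, a zinc finger gene, and were obtained by puromycin selection and isolation of single cells. They therefore stand for selected clonal cells and not for a population of independently edited cells. The sources used here do not say whether the *ZK3*-KO replicates came from the same clone. The replicate spread may therefore not include differences between clones. Both genotypes were grown in DMEM with FBS, with no further treatment. The comparison asks whether transcripts of the stem cell markers differ between cells with and without ZKSCAN3.

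At the base of the colonic crypt, stem cells divide under WNT signals, and their daughters leave the niche and differentiate into absorptive and secretory cells. No single gene defines the state, so surface proteins (CD44, PROM1, ALCAM), aldehyde dehydrogenases that make retinoic acid (ALDH1A1, ALDH1A3), regulators of transcription and chromatin (MYC, SOX4, BMI1), a receptor antagonist (LRIG1) and a secreted glycoprotein (OLFM4) are used side by side. Several are known targets of WNT signals, which act through TCF/LEF factors bound to DNA, and MYC with its partner MAX binds the E-box motif.

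RefSeq start sites (build GRCh38.p14) were found for 9 of the 10 genes, all but MYC, in 16 windows from 250 bases before to 50 bases after a start. These were searched on both strands for the TCF/LEF letters CTTTGAT and the E-box letters CACGTG. On either strand, the end of neither motif matches the start of the other, so they cannot overlap. Among all 35116 windows of this length, 2.62% held the first motif and 7.26% the second. Of the windows of the 10 genes, 1 held CTTTGAT and 1 held CACGTG. Both are shown. The 12 windows found for 9 genes of related lists that were called between the genotypes, described further on, were searched too: 0 held CTTTGAT and 2 held CACGTG, those of HAS3 and DPP4, which are also shown. The motif is in capitals, with 25 bases on each side, 5′ to 3′ on the strand of the gene. The PROM1 stretch lies at chr4:16076266-16076322 on the reverse strand of GRCh38.p14, before 1 of 4 PROM1 starts. The BMI1 stretch lies at chr10:22321004-22321059 on the forward strand, before 1 of 2 BMI1 starts. The HAS3 stretch lies at chr16:69107449-69107504 on the forward strand, and the DPP4 stretch at chr2:162074400-162074455 on the reverse strand.
PROM1: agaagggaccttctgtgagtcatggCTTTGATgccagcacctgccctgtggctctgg
BMI1: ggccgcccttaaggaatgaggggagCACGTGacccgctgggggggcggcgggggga
HAS3: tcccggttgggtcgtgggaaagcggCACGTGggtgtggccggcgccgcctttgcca
DPP4: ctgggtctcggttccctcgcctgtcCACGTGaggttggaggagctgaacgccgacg
Each of the 4 stretches matched GRCh37, the build of the deposited table, once. There the PROM1 stretch lay inside an intron of the PROM1 gene as annotated by GENCODE, the BMI1 stretch in an intron of the readthrough gene COMMD3-BMI1, the HAS3 stretch in an intron of a longer HAS3 gene model, and the DPP4 stretch in an intron of the divergent transcript DPP4-DT. A match says only that these letters stand in the window, and the data hold no measurement of binding.

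The 6 libraries held between 60827060 and 69739215 reads on genes. Of the 10 genes, 8 passed edgeR's filter on low counts and were tested for a genotype difference by edgeR's quasi-likelihood method, adjusted over all 18366 tested genes to a false discovery rate (FDR). ALDH1A1 and OLFM4 did not pass. ZKSCAN3 itself ranged from 19.8 to 28.1 CPM (normalised read counts scaled to a common library size) among parental libraries and from 13.6 to 25.4 CPM among knockout libraries (log2 fold change -0.16, FDR 0.797 in the same test), so its read number does not check the labels, and reads per gene do not show the edited codon. *ZK3*-KO replicate 3 stood apart: its log2 CPM across genes correlated at 0.963 and 0.950 with the other *ZK3*-KO replicates, while every other pair of the same genotype gave 0.983 to 0.989. For the 8 tested genes, estimates that moved by over 1.5 times without it are given both ways. Most other estimates are given with all 6 libraries only. Of 10 colorectal epithelial markers, 7 were expressed in these cells (summed over the list, 3843 to 4880 TPM, the length-scaled unit of the authors, in *ZK3*-WT cells and 3507 to 5710 TPM in *ZK3*-KO cells), and the other 3, VIL1, CDH17 and LGALS4, averaged below 1 TPM in both genotypes. Among markers of other cell types, PTPRC and CD3E had 0 reads in every library, endothelial markers summed to less than 1 TPM, leukocyte markers to 4.09 to 13.1 TPM in *ZK3*-WT cells and 2.24 to 8.42 TPM in *ZK3*-KO cells, nearly all from CD68, and fibroblast markers to 17.5 to 21.7 TPM and 12.1 to 29.3 TPM, nearly all from COL1A1.

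Transcripts of the 8 tested genes covered a wide range of levels in parental cells. Levels of different genes are compared as TPM, which the authors scaled by transcript length. CD44 was the most abundant at 256 ± 53.1 TPM (SD, n = 3), above 97.9% of tested genes. MYC followed at 178 ± 60.6 TPM and ALDH1A3 at 134 ± 14.2 TPM. A middle group was formed by SOX4 at 67.6 ± 19.1 TPM, ALCAM at 60.9 ± 7.06 TPM and BMI1 at 47.9 ± 5.54 TPM, all above at least 84.2% of tested genes. PROM1 had 18.1 ± 4.35 TPM. LRIG1 was the lowest of the 8 at 3.98 ± 0.616 TPM, above 35.6% of tested genes. The libraries of neighbours in this order overlapped for CD44 and MYC, MYC and ALDH1A3, SOX4 and ALCAM, and ALCAM and BMI1, and were separate for ALDH1A3 and SOX4, BMI1 and PROM1, and PROM1 and LRIG1.

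*ZK3*-KO cells had the same order of means: CD44 212 ± 59.2 TPM, MYC 127 ± 20.8 TPM, ALDH1A3 94.9 ± 40.0 TPM, SOX4 83.1 ± 37.5 TPM, ALCAM 62.8 ± 3.16 TPM, BMI1 44.3 ± 13.3 TPM, PROM1 16.1 ± 2.44 TPM and LRIG1 3.996 ± 0.063 TPM (SD, n = 3). There ALDH1A3 and SOX4 overlapped, whereas CD44 and MYC, and ALCAM and BMI1, did not.

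**Figure D1:**
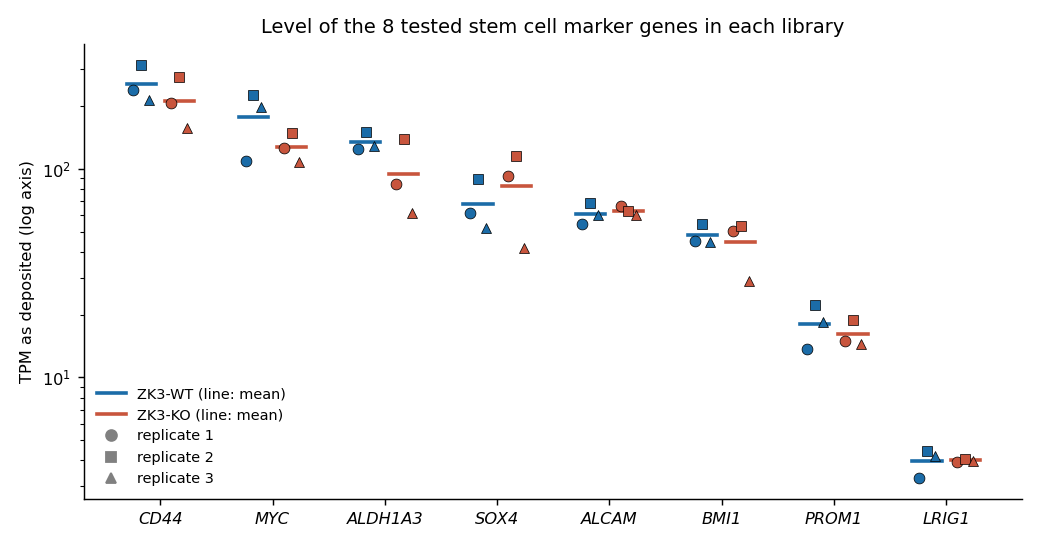
TPM as deposited (log axis) of the 8 tested stem cell marker genes in the 3 *ZK3*-WT (blue) and 3 *ZK3*-KO (red) libraries, with a line at each mean and a symbol for each replicate number. The genes run from CD44, with means of 256 and 212 TPM, to LRIG1, with means of 3.98 and 3.996 TPM, and the blue and red points of every gene overlap.

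In the comparison of the genotypes, none of the 8 tested genes reached an FDR under 0.05 by edgeR's quasi-likelihood test, and none had an unadjusted p-value under 0.05, where 18.4% of all tested genes did; the lowest was 0.137, for ALDH1A3. Under the alternatives a single gene of the 8 fell below an unadjusted 0.05 in 4 fits: ALDH1A3 with the replicate number as a block (where 21.7% of tested genes did) and without *ZK3*-KO replicate 2 (15.2%), MYC without *ZK3*-WT replicate 1 (15.3%) and SOX4 without *ZK3*-KO replicate 3 (32.4%). DESeq2 also called 0 of the 8. Among all tested genes 2.05% passed the threshold (0.817% higher and 1.23% lower in *ZK3*-KO cells), a share that amounts to less than 1 gene in 8. A linear model on log2(TPM + 1) divided the calls differently, with 88 genes higher and 294 lower. The point estimates of 3 genes were above 0 and those of 5 below, with a median log2 fold change of -0.03 beside 0.02 over all tested genes. For 7 of the 8, all but SOX4, the 95% interval of the log2 fold change lay between -1 and 1. This count rests on all 6 libraries and on the scaling: it was 5 to 7 with single libraries left out, 8 with the block and 5 with scaling by library totals, and the intervals that reached beyond were those of ALDH1A3, MYC and SOX4. It was 5 without *ZK3*-WT replicate 1 or 3, and 6 without *ZK3*-WT replicate 2, *ZK3*-KO replicate 1 or *ZK3*-KO replicate 2. The median standard error was 0.206 for the 8 genes and 0.258 for all tested genes, while the smallest difference called in any gene was 0.65 on the log2 scale. The ranges of the genotypes overlapped for each of the 8 genes, whereas 26.6% of tested genes had groups that did not overlap. Between libraries of the same replicate number, CD44 and ALDH1A3 were lower in *ZK3*-KO cells in 3 of 3 pairs and SOX4 was higher in 3 of 3, though its pair of replicate 3 was nearly level (121.6 and 121.9 CPM). The other 5 genes had pairs in both directions. All 3 pairs had the same direction in 47.4% of all tested genes.

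**Figure D2:**
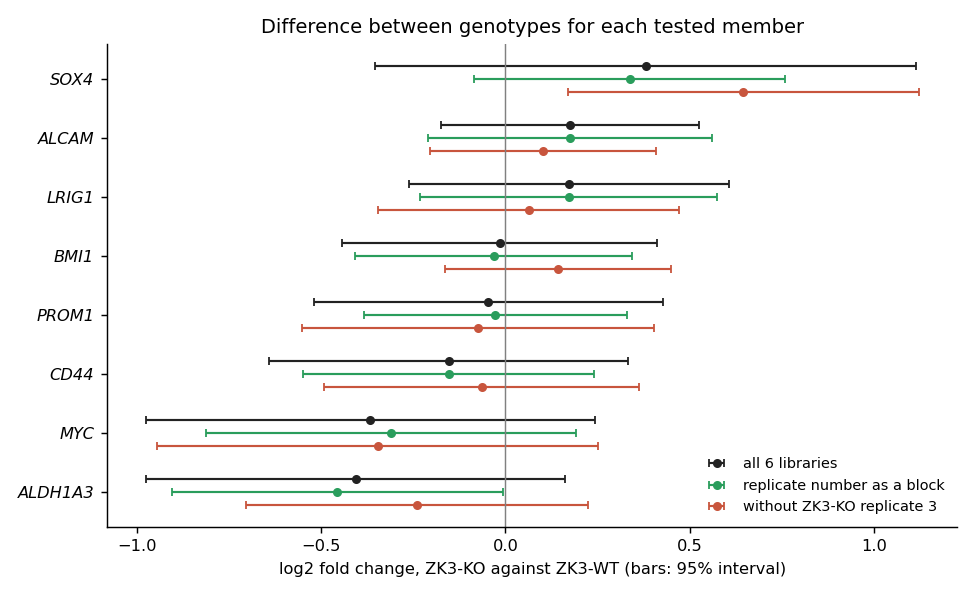
Log2 fold change of *ZK3*-KO against *ZK3*-WT for each tested gene with its 95% interval, fitted with all 6 libraries (black), with the replicate number as a block (green) and without *ZK3*-KO replicate 3 (red). All black intervals include 0, from ALDH1A3 at -0.41 to SOX4 at 0.38. The green interval of ALDH1A3 (-0.91 to -0.0061) and the red interval of SOX4 (0.17 to 1.12) do not.

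Of the surface markers, CD44 is the receptor for hyaluronan and occurs in many splice forms (chromosome 11 of GRCh37, 35160429 to 35253949, forward strand). Its libraries, taken by replicate number, gave 558, 718 and 505 CPM for *ZK3*-WT and 481, 650 and 469 CPM for *ZK3*-KO. Replicate 2 was the highest in both genotypes, and its 2 values exceeded the other 4. The log2 fold change was -0.15 (SE 0.21, 95% interval -0.64 to 0.33, FDR 0.746 in edgeR's quasi-likelihood test), or a fold of 0.899 with an interval from 0.641 to 1.26. It was -0.06 without *ZK3*-KO replicate 3, -0.32 without *ZK3*-KO replicate 2 and 0.0048 without *ZK3*-WT replicate 2. The table lists 27 RefSeq transcripts for CD44 under a single count, so standard and variant forms were not resolved. With at least 28987 reads in every library, counting error was at most 0.587% of a value, and the width of the interval reflects differences between libraries.

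PROM1 encodes prominin-1 (CD133), a protein of membrane protrusions whose surface epitope was among the first used to sort tumour-initiating colon cells. The gene lies on chromosome 4 from 15964699 to 16086001, on the reverse strand. *ZK3*-WT replicates gave 25.97, 41.4 and 34.7 CPM and *ZK3*-KO replicates 28.5, 35.9 and 34.4 CPM, so that the *ZK3*-KO values lay inside the *ZK3*-WT range. Its log2 fold change was -0.05 (SE 0.20, 95% interval -0.52 to 0.43, FDR 0.931 in edgeR's test), and -0.07 without *ZK3*-KO replicate 3.

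ALCAM, or CD166, is an adhesion molecule of the immunoglobulin family that binds itself and CD6 (chromosome 3, 105085753 to 105295744, forward strand). Its values were 122, 148 and 134 CPM in *ZK3*-WT cells and 148, 140 and 168 CPM in *ZK3*-KO cells, with the highest in *ZK3*-KO replicate 3 and the lowest in *ZK3*-WT replicate 1. The difference of 0.17 on the log2 scale (SE 0.15, 95% interval -0.17 to 0.52, FDR 0.583 in edgeR's test) had the smallest standard error of the 8 genes, and was 0.10 without *ZK3*-KO replicate 3. As TPM the means were 60.9 and 62.8.

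Of the pair of aldehyde dehydrogenases, which oxidise retinal to retinoic acid and account for part of the ALDH activity assayed in stem-like cells, only ALDH1A3 had reads in every library. ALDH1A3 (chromosome 15, 101417919 to 101456831, forward strand) gave 207, 241 and 213 CPM in *ZK3*-WT cells and 140, 232 and 127 CPM in *ZK3*-KO cells. *ZK3*-KO replicates 1 and 3 lay below every *ZK3*-WT library, whereas *ZK3*-KO replicate 2 lay among them. The log2 fold change was -0.41 (SE 0.24, 95% interval -0.98 to 0.16, FDR 0.423 in edgeR's test), and it was -0.72 (FDR 0.126) without *ZK3*-KO replicate 2 and -0.24 (FDR 0.458) without *ZK3*-KO replicate 3. With the replicate number as a block, a fit that called 2.51% of all tested genes and none of the 8, it was -0.46 (95% interval -0.91 to -0.0061, FDR 0.226). ALDH1A1 (chromosome 9, 75515587 to 75695358, reverse strand) had 7 reads in *ZK3*-WT replicate 2 and 0 reads in the other 5 libraries. A count of 0 allows up to 3 reads, or 0.0430 to 0.0493 CPM depending on the library, here scaled by library totals without TMM. The genotypes could therefore not be compared for ALDH1A1 at this depth.

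MYC encodes the transcription factor that drives growth and ribosome production downstream of WNT signals (chromosome 8, 128747680 to 128755197, forward strand). Its parental libraries spread widely, with 206, 412 and 373 CPM for replicates 1, 2 and 3, and *ZK3*-WT replicate 1 stood below all 3 *ZK3*-KO replicates at 236, 282 and 250 CPM. The other *ZK3*-WT libraries were above all *ZK3*-KO libraries. The log2 fold change was -0.37 (SE 0.26, 95% interval -0.98 to 0.24, FDR 0.503 in edgeR's test), and it was -0.62 (FDR 0.205) without *ZK3*-WT replicate 1 and -0.18 (FDR 0.895) without *ZK3*-WT replicate 2.

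SOX4, a transcription factor of the SOX family expressed in progenitors (chromosome 6, 21593982 to 21598850, forward strand), had the largest standard error of the 8 genes. *ZK3*-WT replicates had 144, 200 and 122 CPM, and *ZK3*-KO replicates had 215, 270 and 122 CPM. The first 2 *ZK3*-KO libraries were above every *ZK3*-WT library, and *ZK3*-KO replicate 3 was level with the lowest *ZK3*-WT library. The log2 fold change was 0.38 (SE 0.31, 95% interval -0.35 to 1.11, FDR 0.568 in edgeR's test). Without *ZK3*-KO replicate 3 it was 0.65 (SE 0.21, 95% interval 0.17 to 1.12, FDR 0.0697), in a fit that called 15.1% of 18872 genes (7.41% higher and 7.73% lower in *ZK3*-KO cells) and in which none of the 8 genes passed the threshold. It was 0.12 (FDR 0.883) without *ZK3*-KO replicate 2, 0.23 without *ZK3*-WT replicate 3 and 0.61 without *ZK3*-WT replicate 2. Once *ZK3*-KO replicate 3 was left out, 50.5% of tested genes had groups that did not overlap, and SOX4 was the 1 gene of the 8 among them.

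BMI1 is a subunit of Polycomb repressive complex 1, which ubiquitinates histone H2A and keeps the CDKN2A locus silent (chromosome 10, 22610028 to 22620413, forward strand). Values of 76.3, 89.0 and 75.5 CPM in *ZK3*-WT cells faced 85.8, 90.9 and 61.6 CPM in *ZK3*-KO cells, with both the highest and the lowest value among knockout libraries. Its log2 fold change of -0.02 (SE 0.18, 95% interval -0.44 to 0.41, FDR 0.976 in edgeR's test) was the closest to 0 of the 8, and its sign changed to 0.14 without *ZK3*-KO replicate 3. BMI1 shares exons with COMMD3-BMI1, a readthrough gene listed separately with 304 to 622 reads beside 3804 to 6301 for BMI1, so the division of reads between them is uncertain.

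LRIG1, a transmembrane protein that promotes degradation of ERBB receptors and marks a set of slowly cycling crypt cells in mice, lies on chromosome 3 from 66429221 to 66551687 on the reverse strand. It had 8.43, 10.5 and 10.2 CPM in *ZK3*-WT cells and 9.78, 10.5 and 12.6 CPM in *ZK3*-KO cells. The highest was again in *ZK3*-KO replicate 3. Its log2 fold change was 0.17 (SE 0.19, 95% interval -0.26 to 0.61, FDR 0.672 in edgeR's test), from 530 to 780 reads per library and a counting error of up to 4.34%. It was 0.06 without *ZK3*-KO replicate 3 and 0.08 without *ZK3*-WT replicate 1. SLC25A26 overlaps LRIG1 on the opposite strand with 932 to 1359 reads. The libraries were stranded, but the sources used here do not state whether counting used the strand, so a share of reads from the opposite gene cannot be told apart. OLFM4 (chromosome 13, 53602948 to 53626192, forward strand), a secreted glycoprotein of human crypt base cells, had 0 reads in all 6 libraries, again with a limit of 3 reads per library.

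The 8 genes had a pattern across libraries that was not the genotype. All 8 had their highest *ZK3*-WT value in replicate 2, where 29.5% of all tested genes did, and 6 of the 8 had their highest *ZK3*-KO value in replicate 2, where 34.0% did. The exceptions were ALCAM and LRIG1, both highest in *ZK3*-KO replicate 3 as CPM. *ZK3*-KO replicate 3 was the lowest *ZK3*-KO library for CD44, ALDH1A3, BMI1 and SOX4. The 8 of 8 in *ZK3*-WT replicate 2 were also found with scaling by library totals and with TPM. The *ZK3*-KO side depended on the scale. As TPM, 7 of the 8 were highest in *ZK3*-KO replicate 2, where 41.3% of all tested genes were. ALCAM was then highest in *ZK3*-KO replicate 1, and 0 of the 8 were highest in *ZK3*-KO replicate 3. That library was the lowest for 7 of the 8 as TPM, and for 58.6% of all tested genes. This pattern was noticed after the values were seen, the libraries share their depth and composition across genes, and no test was made of it. In bulk RNA, more cells of a kind and more RNA per cell cannot be told apart.

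**Figure D3:**
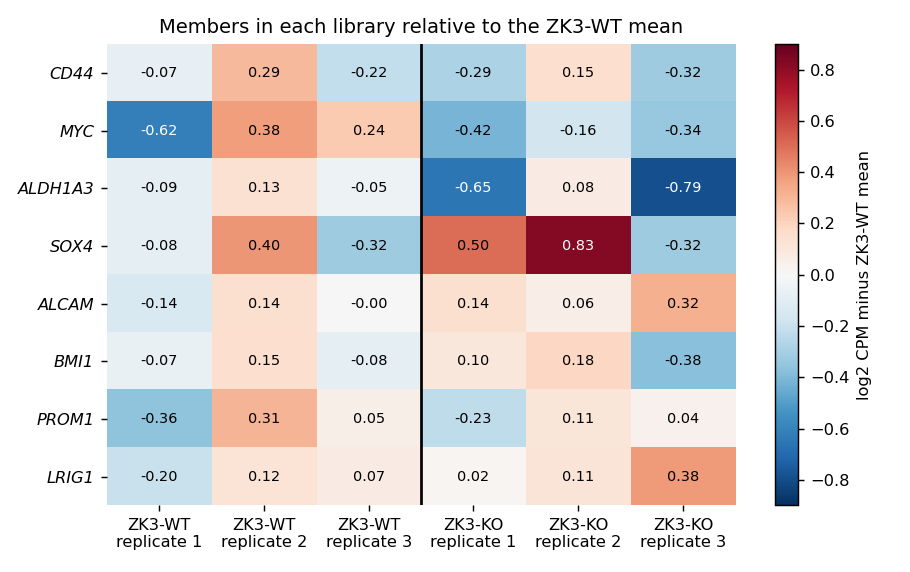
Log2 CPM of each tested gene in each library minus its *ZK3*-WT mean (colour and printed value), with the genotypes divided by a line. The *ZK3*-WT replicate 2 column is above 0 for all 8 genes, from 0.12 for LRIG1 to 0.40 for SOX4, and the lowest value is -0.79, for ALDH1A3 in *ZK3*-KO replicate 3.

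**Figure D4:**
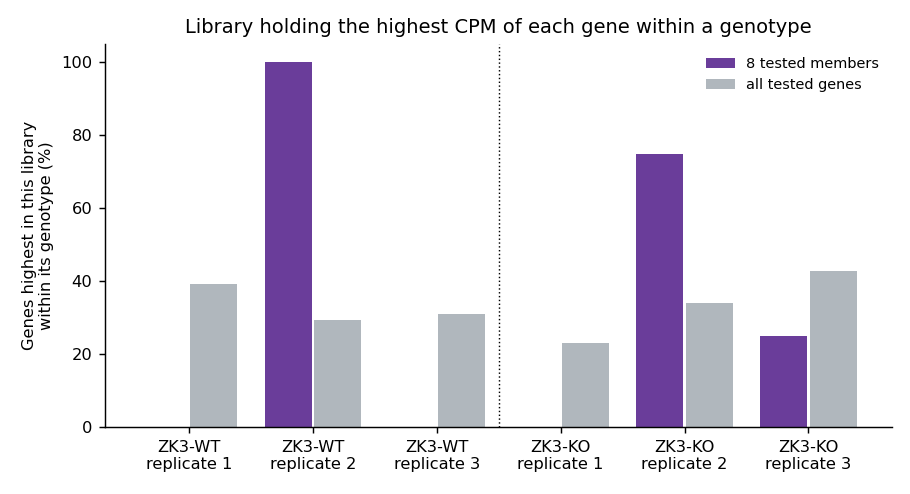
Share of genes, in percent, whose highest CPM within a genotype was in the library on the horizontal axis, for the 8 tested genes (purple) and all tested genes (grey). Purple bars stand at 100% for *ZK3*-WT replicate 2, 75% for *ZK3*-KO replicate 2 and 25% for *ZK3*-KO replicate 3, and grey bars lie between 23.1% and 42.9%.

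Likeness between patterns was measured as the root mean square difference, over the 6 libraries, of log2 CPM relative to the *ZK3*-WT mean. Within the 8 genes, ALCAM and LRIG1 were the most alike (0.0736) and MYC and SOX4 the least (0.637). Among 13141 other genes with an average of at least 1 log2 CPM, BMI1 had the closest neighbour, MYO6 at 0.0162, followed by MRPL42 at 0.0355. ALCAM was nearest to RNF11 (0.0429) and SPCS3 (0.0536), LRIG1 to RBM34 (0.0438) and TAPT1 (0.0479), and PROM1 to the pseudogene FAM86C1P (0.0551) and to SLC16A1 (0.0629). Distances were larger for ALDH1A3, nearest to HCN4 (0.0707) and RCBTB2 (0.0848), MYC, nearest to SNTB1 (0.0726) and MTRR (0.0990), and CD44, nearest to ACOXL (0.0784) and ARRB1 (0.0866). SOX4 had the most distant neighbours, CXADR (0.101) and ZNF254 (0.113). Since likeness includes the genotype difference, the genotype test of these 16 genes adds nothing to the choice and is not given.

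Around the members, 12 lists of related genes held 226 further genes, of which 181 were tested. Of these, 10 were called by edgeR's quasi-likelihood test at an FDR under 0.05, beside the 2.05% of all tested genes. The lists were chosen with earlier results of these data known, so the count is a description and does not measure an excess. The other intestinal stem cell genes gave 1 higher and 2 lower of 24 tested (median log2 fold change 0.01). RNF43, a ubiquitin ligase that removes WNT receptors from the surface, went from 117, 177 and 118 CPM in parental libraries to 40.1, 41.2 and 31.4 CPM in knockout libraries, and fell by 1.87 on the log2 scale (SE 0.22, FDR 0.00992). SOX9, a crypt base transcription factor and a relative of SOX4, was at 173, 212 and 184 CPM against 74.1, 59.7 and 66.1 CPM, and fell by 1.51 on the log2 scale (SE 0.16, FDR 0.00697). Neither gene had overlapping groups, unlike SOX4. DPP4, a peptidase also used as the surface marker CD26, rose from 9.08, 6.82 and 6.52 CPM to 22.7, 25.7 and 15.6 CPM (log2 fold change 1.51, SE 0.24, FDR 0.0283). LGR5, the receptor that marks crypt base stem cells in mice, had 3 reads in *ZK3*-KO replicate 1 and 0 reads elsewhere, and ASCL2, SMOC2 and HOPX had 0 reads in every library. In this list 6 genes stayed below 1 TPM in every library. Its most abundant gene in *ZK3*-WT cells was ITGB1 at 393 TPM. The log2 fold change of ITGB1 was 0.30 (FDR 0.605 in edgeR's test), and 0.06 without *ZK3*-KO replicate 3.

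Each of these 3 calls was lost when at least 1 particular library was left out. RNF43 lost its call without *ZK3*-KO replicate 1 (FDR 0.0679), and SOX9 lost it without *ZK3*-WT replicate 2 (FDR 0.0562) and without *ZK3*-WT replicate 3 (FDR 0.0509). The call of DPP4 was lost without any one of the *ZK3*-WT replicates (FDR 0.0832, 0.177 and 0.157 without replicates 1, 2 and 3) and without *ZK3*-KO replicates 1 and 2 (FDR 0.124 and 0.0729). The direction of all 3 held in each of these fits.

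Among 29 genes of colonic differentiation, only 10 were tested, 22 stayed below 1 TPM in every library and 11 had 0 reads in all libraries. The median log2 fold change was 0.44. The most abundant of these genes in *ZK3*-WT cells was CDKN1A at 250 TPM. Its log2 fold change was 0.53 (FDR 0.473 in edgeR's test), and 0.13 without *ZK3*-KO replicate 3. FCGBP, a mucus protein of goblet cells, was the 1 gene called, at 16.2, 22.5 and 23.6 CPM in *ZK3*-WT cells and 42.7, 40.0 and 60.8 CPM in *ZK3*-KO cells (log2 fold change 1.202, SE 0.23, FDR 0.0473). It passed in only 6 of 15 alternative fits and was lost with each single library left out other than *ZK3*-KO replicate 3 (FDR 0.143, 0.209 and 0.167 without *ZK3*-WT replicates 1, 2 and 3, and 0.137 and 0.0690 without *ZK3*-KO replicates 1 and 2). MUC2, the main goblet cell mucin, had 13 to 22 reads.

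The hyaluronan side of CD44 held the clearest difference of the lists. HAS3, a hyaluronan synthase and thus a source of the CD44 ligand, gave 28.5, 24.5 and 17.6 CPM in parental libraries and 268, 292 and 220 CPM in knockout libraries. The lowest *ZK3*-KO library was far above the highest *ZK3*-WT library. HAS3 rose by a log2 fold change of 3.47 (SE 0.23, FDR 0.00152 in edgeR's test) and passed in 15 of 15 alternatives. The other 19 tested genes of this list, which covers hyaluronan turnover and the binding, splicing and shedding of CD44, were not called. Among them was EZR, the linker between CD44 and actin and the most abundant of the list at 1246 TPM (log2 fold change -0.25, FDR 0.700 in edgeR's test).

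**Figure D5:**
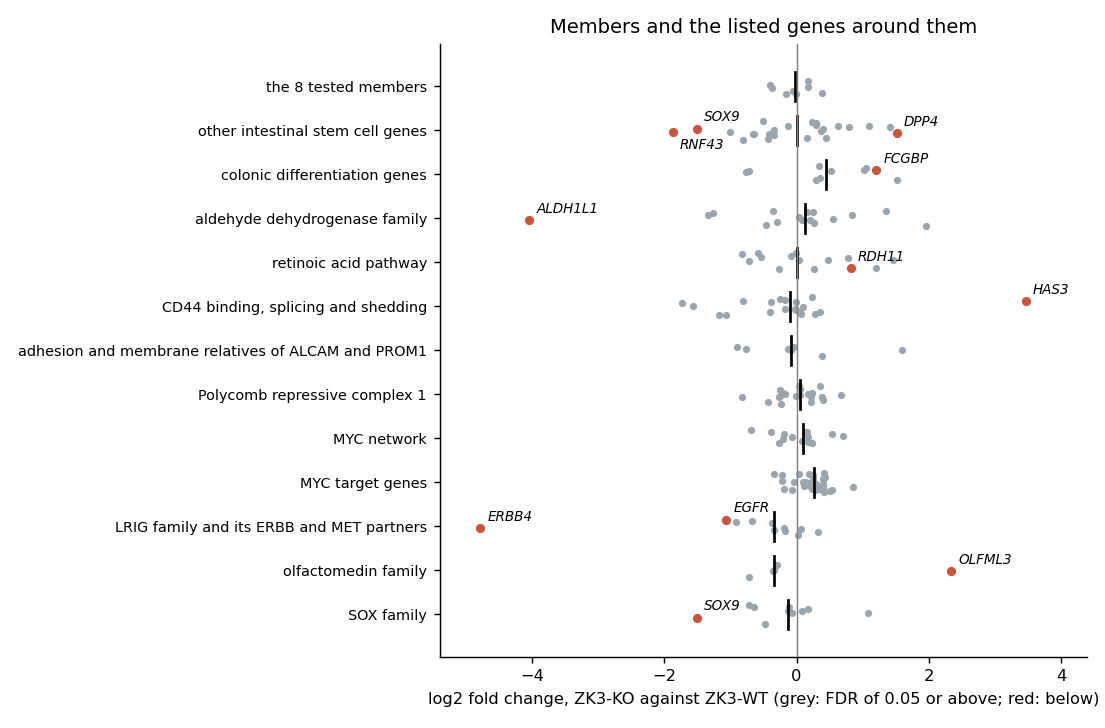
Log2 fold changes of *ZK3*-KO against *ZK3*-WT for the 8 tested stem cell marker genes and for the tested genes of 12 lists, with red points for an FDR under 0.05 and a black line at each median. The 8 genes lie between -0.41 and 0.38, HAS3 stands at 3.47, and the ERBB4 point rests on 2 reads in *ZK3*-KO cells, so its place depends on the prior count of the fit.

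In the ALDH family, 16 of 17 genes were tested and 1 was lower. The most abundant of the list, ALDH18A1, was at 69.1 TPM in *ZK3*-WT cells and was not called (log2 fold change 0.20, FDR 0.522 in edgeR's test). ALDH1L1, a folate enzyme that consumes formyltetrahydrofolate, had 161, 242 and 219 reads in *ZK3*-WT cells and 6, 17 and 13 reads in *ZK3*-KO cells, and fell by 4.04 on the log2 scale (SE 0.40, FDR 0.00559 in edgeR's test, called in 14 of 14 alternatives). The retinoic acid pathway, which lies downstream of ALDH1A3, gave 1 call among 14 tested genes. RDH11, a retinal reductase, was at 76.9, 85.0 and 81.3 CPM in *ZK3*-WT cells and 136, 142 and 151 CPM in *ZK3*-KO cells (log2 fold change 0.82, SE 0.13, FDR 0.0287), but lost its call without any one library other than *ZK3*-KO replicate 3 (FDR 0.0746 to 0.194). CRABP2, the most abundant gene of the pathway at 303 TPM in *ZK3*-WT cells and a carrier of retinoic acid to its receptors, had a log2 fold change of -0.82 (FDR 0.0887). It passed with the replicate number as a block (FDR 0.0479) and without *ZK3*-KO replicate 3 (FDR 0.0261). FABP5, another retinoic acid carrier, lay in the opposite direction, at 76.1, 67.7 and 63.3 CPM in parental libraries and 171, 201 and 106 CPM in knockout libraries (log2 fold change 1.21, FDR 0.0552), and it too passed with the block (FDR 0.0396) and without *ZK3*-KO replicate 3 (FDR 0.000726).

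Among LRIG1 relatives and the receptors they act on, 2 of 11 tested genes were lower. EGFR, a receptor targeted by LRIG1, was at 167, 192 and 167 CPM in *ZK3*-WT cells and 86.4, 84.9 and 80.3 CPM in *ZK3*-KO cells, and fell by 1.06 on the log2 scale (SE 0.14, FDR 0.0144), while LRIG1 itself was not separated. Without any *ZK3*-WT replicate or without *ZK3*-KO replicate 1, the FDR of EGFR was 0.0644 to 0.107. ERBB4 was called from low counts, with 18, 29 and 20 reads in *ZK3*-WT cells and 0, 2 and 0 reads in *ZK3*-KO cells (FDR 0.0385, called in 7 of 14 alternatives). Leaving out *ZK3*-WT replicate 1, 2 or 3, or *ZK3*-KO replicate 1 or 2, gave it an FDR of 0.0599 to 0.207. ERRFI1, an inhibitor of EGFR and the most abundant gene of the list at 1185 TPM, had a log2 fold change of -0.68 (FDR 0.514) and ranged from 960 to 2459 CPM among *ZK3*-WT libraries.

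In the olfactomedin family, to which OLFM4 belongs, 1 of 5 tested genes was higher. OLFML3, a secreted matrix protein, had 11, 22 and 12 reads in *ZK3*-WT cells and 58, 89 and 74 reads in *ZK3*-KO cells (log2 fold change 2.34, SE 0.38, FDR 0.0301), and lost its call without any one library other than *ZK3*-KO replicate 3 (FDR 0.0841 to 0.169). OLFM2 was the most abundant member of that family at 31.9 TPM (log2 fold change -0.29, FDR 0.708). Of the SOX family, 10 of 16 genes were tested and SOX9 alone was called.

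No gene passed the threshold in edgeR's test in 4 lists. They held 20 Polycomb repressive complex 1 genes (median log2 fold change 0.05), 14 genes of the MYC network (0.10), 34 MYC target genes (0.27) and 7 relatives of ALCAM and PROM1 (-0.09). The 20 were subunits of the complex together with CDKN2A, a locus it keeps silent. At an unadjusted p-value under 0.05 there were 3 of 20, 2 of 14, 2 of 34 and 2 of 7 genes in these lists, beside 18.4% of all tested genes, and DESeq2 called 1, 0, 0 and 2 of them. The Polycomb median was -0.05 with scaling by library totals. Without *ZK3*-KO replicate 3, the medians of the 4 lists, in the same order, were -0.03, 0.0048, 0.40 and -0.11. The most abundant genes of the 4 lists were PHC2 at 128 TPM (log2 fold change 0.22), MLX at 53.8 TPM (0.08), NPM1, a nucleolar chaperone, at 1846 TPM (0.29) and CD9, a tetraspanin, at 208 TPM (-0.09). Of the MYC target genes, 28 of 34 had an estimate above 0, beside 51.7% of all tested genes, and 26 to 28 of 34 did with the other scalings. Their median was 0.12 without *ZK3*-KO replicate 2 and 0.11 with limma on log2(TPM + 1). Without *ZK3*-KO replicate 3, 29 were above 0, 9 were called higher and 0 lower, in the fit that called 7.41% of all genes higher and 7.73% lower. The estimate of MYC itself was -0.37 with all libraries.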

How the data were processed

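RNA from *ZK3*-WT and *ZK3*-KO HCT116 cells, 3 cultures each, was converted to stranded libraries and sequenced. One table was deposited. Its deposited counts are whole reads assigned to a gene, with no normalization. The authors also computed FPKM from length and depth, and the authors' TPM values correct for length and sum to nearly the same total in all libraries. Bowtie2 2.2.5 and GRCh37 are named in the submitters' processing notes. The methods give Partek Flow with Ensembl transcripts and an ANOVA on TPM, but the rows carry NCBI Gene identifiers with RefSeq transcripts. Whether counting used the strand is not given in the sources used here. FPKM values were not used. TPM served for levels between genes and in 1 alternative.

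The count test was edgeR 4.0.16 in R 4.3.3 (filterByExpr, TMM, quasi-likelihood test with genotype as the only factor, Benjamini-Hochberg adjustment over 18366 genes, threshold 0.05). Fold change intervals are 95% intervals from the same fit, and each SE is the log2 fold change divided by the square root of its F value. A CPM is TMM-normalized unless stated, and counting errors and the limit of 3 reads for a count of 0 cover counting error only. Fits were also run on simulated counts drawn without effects shared by replicate number, and no result here rests on them. Alternatives were DESeq2 1.42.0, median-ratio, upper-quartile and library-total scaling, no filter, at least 10 reads in every library, limma 3.58.1 on log2(CPM + 1) and on log2(TPM + 1), a block for the replicate number, and each library left out.

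Replicates differed by more than sampling noise in every pair (chi-square per degree of freedom from 41.5 to 543), so none was a copy of another. Same-numbered libraries shared their deviations from the genotype means: over genes, the correlation was 0.294 for number 1, 0.112 for number 2 and 0.449 for number 3. Between different numbers it ran from -0.343 to 0.209, the highest for *ZK3*-WT replicate 1 with *ZK3*-KO replicate 2, above that of number 2. All same-numbered values exceeded 0.1, but so did that of *ZK3*-WT replicate 1 with *ZK3*-KO replicate 2. These values therefore cannot decide whether the numbers pair the libraries. The fit with genotype alone leaves the numbers out, and the block was run as an alternative. The sources do not say what the numbers mark.

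The 10 genes and the lists were chosen with earlier results of these data known. Named are all 10 genes, ZKSCAN3, each listed gene past the threshold, the most abundant gene of each list in *ZK3*-WT cells, and the 2 genes nearest in pattern to each tested member. LGR5, ASCL2, SMOC2, HOPX, MUC2, FABP5 and the cell type markers named by their levels were added after their values were seen. All listed symbols were found in the table. Gene positions come from a GENCODE annotation on GRCh37 and promoter windows from RefSeq on GRCh38.p14.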

Additional observations from a re-analysis of the deposited data

How the results depend on the processing

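None of the 8 tested genes was called under any of the 15 alternatives, and 115 of 120 estimates kept their direction and side of the threshold. The 5 that changed sign were all close to 0: BMI1 (0.06 without *ZK3*-WT replicate 2 and 0.14 without *ZK3*-KO replicate 3), CD44 (0.0048 without *ZK3*-WT replicate 2) and PROM1 (0.12 without *ZK3*-WT replicate 2 and 0.06 without *ZK3*-KO replicate 1). With single libraries left out, BMI1 ranged from -0.12 to 0.14, CD44 from -0.32 to 0.0048 and PROM1 from -0.21 to 0.12. The replicate block changed no call among the 8 genes; with it 461 genes were called (2.51%), and 16 of the other listed genes instead of 10. DESeq2 called 1278 genes, and 24 listed genes. Leaving out *ZK3*-WT replicate 1, 2 or 3 gave 67, 49 and 57 called genes with 4, 3 and 3 listed ones, and leaving out *ZK3*-KO replicate 1, 2 or 3 gave 74, 158 and 2858 with 3, 5 and 55. Members whose groups did not overlap numbered 0 to 3: MYC without *ZK3*-WT replicate 1, ALCAM without *ZK3*-WT replicate 2, CD44, ALCAM and ALDH1A3 without *ZK3*-KO replicate 2, and SOX4 without *ZK3*-KO replicate 3, where 30.3% to 50.5% of all tested genes did not overlap; the number was 0 when either *ZK3*-WT replicate 3 or *ZK3*-KO replicate 1 was dropped. The causes were not tested. Of the calls in the fit with all libraries, 39.9% were higher in *ZK3*-KO cells, and 23.04% with limma on log2(TPM + 1), where the median log2 fold change of all genes was -0.08 instead of 0.02. At an unadjusted p-value under 0.05, edgeR's test with all libraries gave 3371 genes. Depth limits ALDH1A1, OLFM4 and LGR5; for the 8 tested genes the spread between 3 libraries is the limit.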
